A study of Homo sapiens with 18 samples.

Results

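The genes described here were the 4 IFIT genes IFIT1, IFIT2, IFIT3 and IFIT5 and the 3 IFITM genes IFITM1, IFITM2 and IFITM3. They were chosen by symbol, as 7 of the 55765 gene symbols counted in each series, and all 7 had enough counts to be tested in both series. RNA was sequenced from OVCAR3, an established human line of high-grade serous ovarian carcinoma, in 18 libraries, 3 in each of 6 groups. The first series held cells with non-specific IgA, cells with non-specific IgG and untreated cells. The second series held cells with BDNF IgA, cells with TSPAN7 IgA and its own untreated cells. All cells were kept in RPMI medium with 2% FBS, antibodies were given at 0.5 μg/ml, and the labels give 24 h, whereas headings of the study's supplementary data give 8 h for both series. All comparisons stayed within a series. The second series had no non-specific antibody among its groups. The study describes the BDNF and TSPAN7 IgA as purified from medium of immortalised tumour B cells. The parts of the recognised antigen, of adding an antibody and of its preparation thus cannot be told apart in that series. All libraries came from a single cell line. The study describes the replicates of the first series as 3 experiments and speaks of biological replicates or independent experiments in general, while the labels only number the libraries, so that p-values measure the spread between repeats of that line.

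Both families belong to the antiviral response that interferons induce. Interferons bind receptors that signal through JAK kinases to transcription factors, which act at interferon-stimulated response elements in the promoters of induced genes. IFIT proteins are cytosolic and built of tetratricopeptide repeats. IFIT1 binds messenger RNA whose cap lacks the ribose methylation that host messages carry, IFIT2 and IFIT3 form complexes with it, and IFIT5 binds RNA with triphosphate ends. IFITM proteins are small membrane proteins that hinder the fusion of viruses with host membranes. IFITM1 sits mainly at the cell surface, IFITM2 and IFITM3 mainly in endosomes.

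In GRCh37 coordinates, the IFIT genes lie together on the plus strand of chromosome 10. IFIT2 (ENSG00000119922) spans 91043451 to 91069028, IFIT3 (ENSG00000119917) 91087064 to 91137230, IFIT1 (ENSG00000185745) 91152303 to 91166244, and IFIT5 (ENSG00000152778) 91174325 to 91181362. The IFITM genes lie together on chromosome 11, with IFITM2 (ENSG00000185201) at 303655 to 309397 and IFITM1 (ENSG00000185885) at 310041 to 315272 on the plus strand, and IFITM3 (ENSG00000142089) at 319676 to 329475 on the minus strand. The main annotated transcript of each of the 7 genes has 2 exons.

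The promoters are shown because most of these genes moved together in the second series. RefSeq promoter windows, from 250 bases before to 50 bases after an annotated start, were matched for 5 of the 7 genes, in 6 windows, since IFIT3 has a pair of starts. IFIT2 and IFITM2 had no entry. Each stretch below runs 5′ to 3′ in the direction of transcription from 200 bases before the start to base 10 after it, in GRCh38.p14, a different build from that of the counts. Capitals mark the core of the interferon-stimulated response element, GAAANNGAAA, or TTTCNNTTTC where it lies on the other strand.
IFIT1, chr10:89392423-89392632, plus strand: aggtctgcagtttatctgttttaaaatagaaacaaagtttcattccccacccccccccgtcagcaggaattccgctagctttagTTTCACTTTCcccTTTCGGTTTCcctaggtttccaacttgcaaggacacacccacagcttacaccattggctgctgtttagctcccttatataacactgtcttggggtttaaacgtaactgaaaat
IFIT3, upstream start, chr10:89327797-89328006, plus strand: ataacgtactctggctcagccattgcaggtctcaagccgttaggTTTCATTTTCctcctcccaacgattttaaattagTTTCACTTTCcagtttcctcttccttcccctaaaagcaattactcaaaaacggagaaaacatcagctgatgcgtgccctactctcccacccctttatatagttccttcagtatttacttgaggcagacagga
IFIT3, downstream start, chr10:89332329-89332538, plus strand: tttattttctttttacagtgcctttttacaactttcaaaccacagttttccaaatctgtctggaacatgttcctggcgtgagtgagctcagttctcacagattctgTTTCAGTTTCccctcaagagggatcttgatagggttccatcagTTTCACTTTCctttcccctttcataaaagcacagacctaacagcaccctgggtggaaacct
IFIT5, chr10:89414368-89414577, plus strand: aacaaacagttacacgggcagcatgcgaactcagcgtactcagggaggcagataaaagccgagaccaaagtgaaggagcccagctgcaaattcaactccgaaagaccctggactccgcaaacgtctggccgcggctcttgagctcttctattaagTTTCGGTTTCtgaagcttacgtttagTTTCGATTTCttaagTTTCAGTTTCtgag
IFITM1, chr11:313840-314049, plus strand: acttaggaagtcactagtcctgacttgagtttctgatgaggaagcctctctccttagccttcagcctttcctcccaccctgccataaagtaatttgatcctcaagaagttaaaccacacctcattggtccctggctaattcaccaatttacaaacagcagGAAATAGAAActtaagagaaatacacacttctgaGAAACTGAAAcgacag
IFITM3, chr11:320851-321060, minus strand: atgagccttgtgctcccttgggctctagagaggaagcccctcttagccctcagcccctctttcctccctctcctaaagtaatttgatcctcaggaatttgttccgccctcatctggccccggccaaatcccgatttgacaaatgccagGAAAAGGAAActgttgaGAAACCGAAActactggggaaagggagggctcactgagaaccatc

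All 6 windows held at least 2 cores, and that of IFIT5 held 3, searched on both strands. The core occurred in 3.57% of all 35116 promoter windows of the same length. In the IFIT windows the cores lay on the strand opposite to the gene, at -116 and -103 in IFIT1, at -156 and -122 or -94 and -51 from the 2 starts of IFIT3, and at -45, -19 and -4 in IFIT5. In the IFITM windows they lay on the strand of the gene, at -40 and -6 in IFITM1 and at -52 and -35 in IFITM3. The core of the gamma-activated site, TTCNNNGAA, was found in the IFITM1 window alone, at -12 with its last base at -4, overlapping the proximal response element core, and in 7.66% of all windows. A match is a description of the letters and not a measured binding site.

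**Figure D1:**
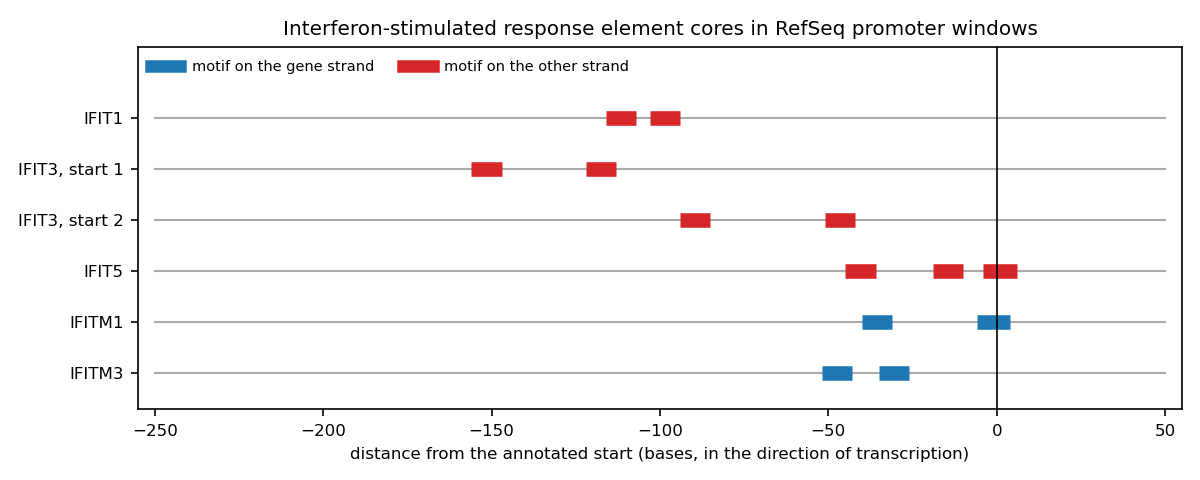
Position of each interferon-stimulated response element core (bars) along the 6 RefSeq promoter windows, in bases from the annotated start (vertical line). The cores of the IFIT genes lie on the other strand (red) and those of IFITM1 and IFITM3 on the gene strand (blue).

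A library of the first series held 27920733 to 42371474 counts, and 1 of the second 39254350 to 47381836. Together the 7 genes took between 40.7 and 57.3 of every 100000 counts in the first series and between 76.4 and 147.6 in the second. Mitochondrial genes took 19.1% of the counts in non-specific IgA replicate 3, against 5.75% in non-specific IgA replicate 2, the lowest of that series, and between 8.60% and 10.2% in the second series. Spread between replicates was larger in the first series, with an edgeR common dispersion of 0.0307 against 0.00303. The 9 markers of serous carcinoma and epithelium summed to between 160052 and 271910 counts per library, and EPCAM had at least 5882 counts in each. Some of them differed with non-specific IgA against untreated cells (edgeR adjusted p under 0.05). WT1 (log2 -1.26) and KRT8 (-0.41) were lower, and PAX8 (0.38) and KRT7 (0.50) higher. Over all genes tested, 12.9% were higher and 12.1% lower there. The 8 leukocyte and plasma cell markers summed to between 24 and 72 counts, with no gene above 56, and the 5 fibroblast and endothelial markers to between 13 and 82.

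With BDNF IgA all 7 genes rose against untreated cells, and with TSPAN7 IgA 6 of the 7 did (edgeR adjusted p under 0.05 over 18732 genes). Over all genes tested, 4.49% were called higher and 3.18% lower with BDNF IgA, and 4.46% higher and 4.08% lower with TSPAN7 IgA. IFITM1 and IFIT1 rose most, by between 3.03 and 4.10-fold, the other IFIT genes by between 1.74 and 2.43-fold, and IFITM3 and IFITM2 least. The median log2 fold change of the 7 genes was 0.89 with BDNF IgA and 1.06 with TSPAN7 IgA, beside 0.0022 and -7e-04 over all genes tested. The 2 comparisons share the untreated libraries.

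IFIT1, the sensor of incompletely methylated caps, had normalised counts of 1094, 1163 and 903 in untreated cells, 3432, 3565 and 4097 with BDNF IgA, and 3933, 3814 and 3487 with TSPAN7 IgA. All 6 libraries with antibody lay above all untreated libraries. The log2 fold change was 1.81 (SE 0.08, edgeR adjusted p = 5.92e-13) with BDNF IgA and 1.83 (SE 0.08, edgeR adjusted p = 5.71e-13) with TSPAN7 IgA, the 18th and 15th highest of all genes tested.

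IFIT3, which stabilises IFIT1 in a complex, had 1787, 1939 and 1613 normalised counts in untreated cells, 3921, 3802 and 4596 with BDNF IgA, and 4276, 4313 and 4372 with TSPAN7 IgA. All 6 libraries with antibody lay above all untreated libraries, and the log2 fold changes were 1.21 (SE 0.07, edgeR adjusted p = 4.57e-11) and 1.28 (SE 0.07, edgeR adjusted p = 2.01e-11). IFIT2, the partner that is also linked to apoptosis, had 767, 809 and 679 in untreated cells, 1282, 1314 and 1581 with BDNF IgA, and 1601, 1585 and 1499 with TSPAN7 IgA. BDNF IgA replicate 3 was the highest of its group for IFIT1, IFIT2 and IFIT3. The log2 fold changes of IFIT2 were 0.89 (SE 0.08, edgeR adjusted p = 9.76e-08) and 1.06 (SE 0.08, edgeR adjusted p = 5.89e-09).

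IFIT5, which binds RNA with triphosphate ends, had 833, 872 and 781 normalised counts in untreated cells, 1433, 1417 and 1480 with BDNF IgA, and 1493, 1460 and 1436 with TSPAN7 IgA. Its coefficient of variation was 2.25% with BDNF IgA, where those of the other IFIT genes lay between 9.51% and 11.8%, and 1.97% with TSPAN7 IgA, where that of IFIT3 was lower at 1.12%. The log2 fold changes were 0.80 (SE 0.06, edgeR adjusted p = 4.72e-09) and 0.82 (SE 0.06, edgeR adjusted p = 3.66e-09), the smallest of the family with either antibody.

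IFITM1, the family member at the cell surface, had 1091, 1117 and 1040 normalised counts in untreated cells, 4333, 3812 and 5148 with BDNF IgA, and 3335, 3192 and 3320 with TSPAN7 IgA. The 3 groups did not overlap, and BDNF IgA replicate 3 was again the highest library. The log2 fold change was 2.03 (SE 0.08, edgeR adjusted p = 5.53e-14) with BDNF IgA, the 12th highest of all genes, and 1.60 (SE 0.08, edgeR adjusted p = 4.70e-12) with TSPAN7 IgA, the 27th highest.

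IFITM3, an endosomal restriction factor of enveloped viruses, was the most abundant of the 7 genes, with 20940, 21415 and 20716 normalised counts in untreated cells, 34416, 31910 and 36634 with BDNF IgA, and 29311, 28958 and 29441 with TSPAN7 IgA. Here too the 3 groups did not overlap. The log2 fold changes were 0.71 (SE 0.05, edgeR adjusted p = 7.36e-10) and 0.48 (SE 0.05, edgeR adjusted p = 4.79e-07).

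IFITM2, its close paralog, moved least, with 6864, 6636 and 6937 normalised counts in untreated cells, 7994, 7621 and 8618 with BDNF IgA, and 7206, 7096 and 7324 with TSPAN7 IgA. The rise with BDNF IgA was 1.19-fold (log2 0.25, SE 0.05, edgeR adjusted p = 0.00194). With TSPAN7 IgA every library lay above every untreated library, but the log2 difference of 0.08 (SE 0.05, 95% interval -0.02 to 0.18) did not pass the test (edgeR adjusted p = 0.322).

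**Figure D2:**
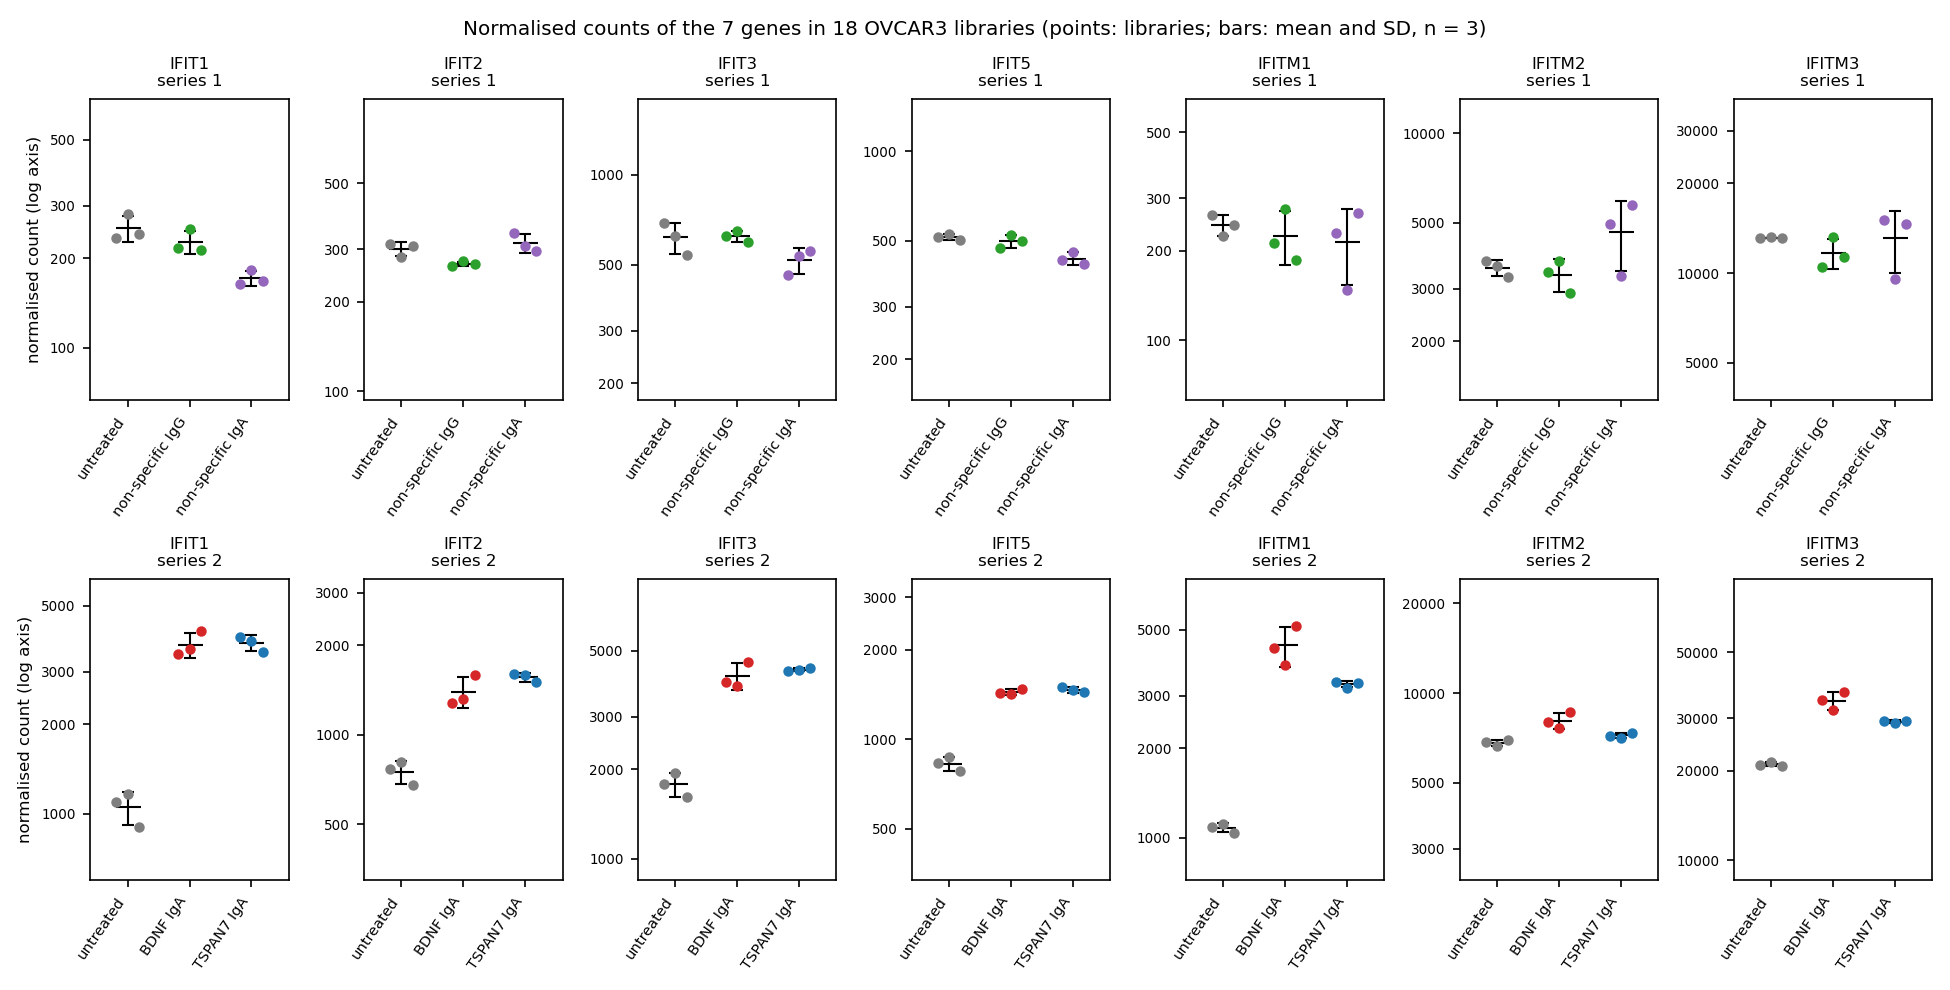
Normalised counts (log axes, every panel spanning the same ratio) of the 7 genes in the 9 libraries of the first series (top) and the 9 of the second (bottom). Points are libraries and bars the mean and SD of 3. The libraries with BDNF IgA and TSPAN7 IgA lie above their untreated libraries for every gene, by least for IFITM2. Levels are normalised within a series and heights are not comparable between the rows.

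The response to TSPAN7 IgA was then set against that to BDNF IgA, as the contrast of both antibody groups. Untreated libraries are not part of this difference but entered the scaling, the filter and the estimate of spread. The 3 IFITM genes were lower in the TSPAN7 IgA libraries, and no IFIT gene was called in either direction. Over all genes tested, 3.42% were called higher and 4.5% lower in this contrast. The log2 fold change was -0.43 for IFITM1 (SE 0.07, edgeR adjusted p = 6.64e-04), -0.23 for IFITM3 (SE 0.05, edgeR adjusted p = 0.00351) and -0.16 for IFITM2 (SE 0.05, edgeR adjusted p = 0.032). For each of the 3 genes all TSPAN7 IgA libraries lay below all BDNF IgA libraries. How many of all genes separate in this way was not counted. Of the 18732 genes tested, 4222 had an unadjusted edgeR p under 0.05 in this contrast, as did 4 of the 7 members. The IFITM2 call was lost when any library other than BDNF IgA replicate 2 was left out (edgeR adjusted p between 0.0701 and 0.234), whereas those of IFITM1 and IFITM3 held without each of the 6 libraries. With the 3 IFITM rows summed, which removes any exchange of reads among them, the contrast was -0.24 (SE 0.05, edgeR adjusted p = 0.00347). That sum is mostly IFITM3, with means with BDNF IgA of 34320 normalised counts for IFITM3, 8078 for IFITM2 and 4431 for IFITM1. It therefore cannot decide whether an exchange of reads entered the IFITM1 or IFITM2 values.

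For the IFIT genes the same contrast gave 0.02 (95% interval -0.13 to 0.17) for IFIT1, 0.07 (-0.06 to 0.21) for IFIT3, 0.02 (-0.10 to 0.14) for IFIT5 and 0.16 (0.01 to 0.32) for IFIT2. The intervals of IFIT1 and IFIT5 leave room for differences of up to 1.12-fold and 1.10-fold in the direction of TSPAN7 IgA. IFIT2 reached an edgeR adjusted p of 0.193, and 0.0415 (log2 0.27) without BDNF IgA replicate 3. That the IFITM genes differed from the IFIT genes in this contrast was not tested as such. Among the 9 serous carcinoma and epithelial markers, 1 was called higher and 4 lower in the same contrast, from -0.66 for MUC16 to 0.30 for KRT7, and their part in the IFITM result was not tested.

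**Figure D3:**
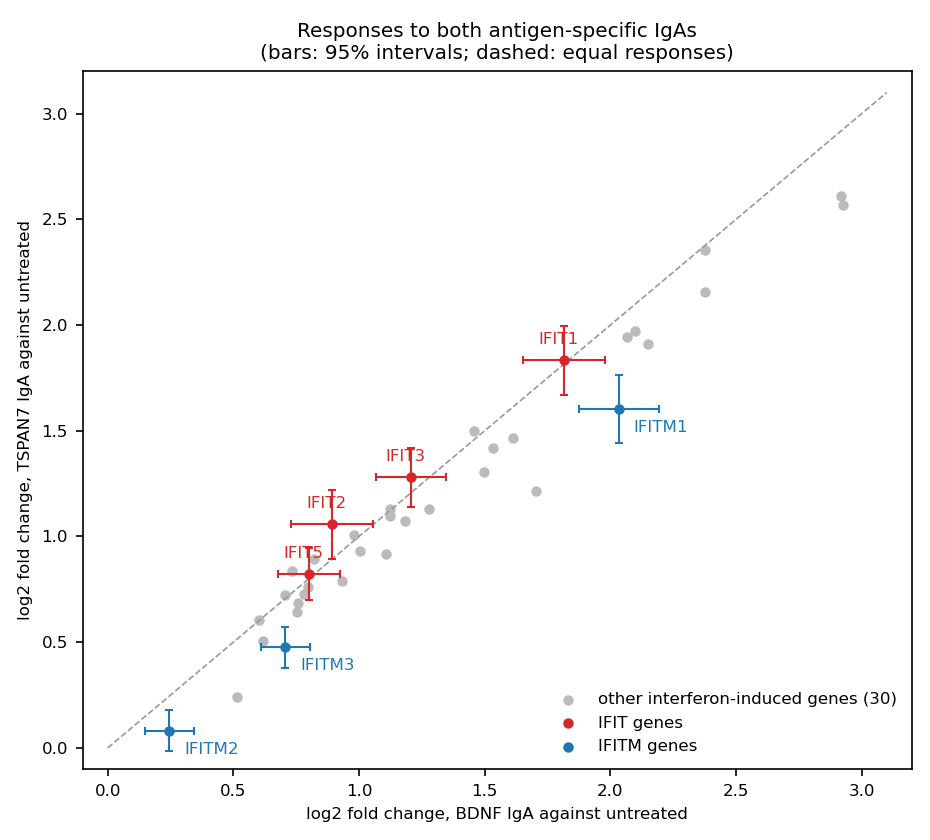
Log2 fold change with TSPAN7 IgA (vertical) against that with BDNF IgA (horizontal), both against the same untreated libraries, with 95% intervals, for IFIT genes (red), IFITM genes (blue) and 30 other interferon-induced genes (grey). The IFIT genes lie on or above the dashed line of equal responses, and IFITM1, IFITM2 and IFITM3 below it.

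With non-specific IgA none of the 7 genes was called higher. None was called in either direction against non-specific IgG, where 12.6% of the 18012 genes tested were higher and 11.6% lower. Against untreated cells IFIT1 alone was called, and it was lower, with 12.9% of all genes called higher and 12.1% lower. Median log2 fold changes of the 7 genes were -0.08 and -0.19, beside -0.01 and -0.01 over all genes. Scaling by library size alone moved every log2 fold change with non-specific IgA by about -0.24 against IgG and -0.215 against untreated cells, so that differences of that size depend on the scaling.

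IFIT1 had 235, 281 and 241 normalised counts in untreated cells, 217, 250 and 213 with IgG, and 164, 183 and 167 with non-specific IgA. The 3 libraries with IgA were the lowest of the 9. Against untreated cells the log2 fold change was -0.56 (SE 0.17, edgeR adjusted p = 0.0294), and against IgG -0.40 (SE 0.17, edgeR adjusted p = 0.102). The call against untreated cells was lost without IgA replicate 1 or without any of the 3 untreated libraries (edgeR adjusted p between 0.0571 and 0.114), and it held without IgA replicate 2 (0.0292) or 3 (0.0363).

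IFIT3 had 687, 626 and 538 normalised counts in untreated cells, 622, 648 and 596 with IgG, and 461, 533 and 558 with non-specific IgA, a log2 difference from IgG of -0.27 (SE 0.14, edgeR adjusted p = 0.169). IFIT5 had 515, 526 and 504, then 473, 523 and 498, then 433, 459 and 417 in the same groups, with a difference from IgG of -0.19 (SE 0.13, edgeR adjusted p = 0.289). IFIT2 had 314, 282 and 307, then 264, 273 and 268, then 341, 308 and 295, with a difference from IgG of 0.23 (SE 0.15, edgeR adjusted p = 0.273). The 3 libraries with IgA lay below all IgG libraries for IFIT1, IFIT3 and IFIT5, and above them for IFIT2, but none of these 4 differences passed the test, and that of IFIT2 turned to -0.0008 on the log2 scale with scaling by library size alone. The share of all genes whose libraries separate in this way was not counted. In this comparison 6758 of the 18012 genes tested, and 2 of the 7 members, had an unadjusted edgeR p under 0.05.

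The IFITM genes were uneven among the libraries with non-specific IgA. IFITM3 had 15093, 9556 and 14594 normalised counts there, against 13114, 13163 and 13089 in untreated cells and 10484, 13162 and 11359 with IgG. IFITM2 had 4968, 3307 and 5723, against 3707, 3580 and 3290 in untreated cells and 3420, 3726 and 2895 with IgG. IFITM1 had 229, 148 and 267, against 264, 224 and 243 in untreated cells and 213, 276 and 186 with IgG. Replicate 2 was the lowest of the IgA libraries for all 3 genes, and its share of mitochondrial counts was the lowest too, but not for the IFIT genes, of which it was the highest for IFIT1 and IFIT5. The part of the mitochondrial share in this was not tested.

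Against IgG the log2 fold changes were 0.48 for IFITM2 (SE 0.17, edgeR adjusted p = 0.0519), 0.16 for IFITM3 (SE 0.15, edgeR adjusted p = 0.459) and -0.08 for IFITM1 (SE 0.23, edgeR adjusted p = 0.839). The calls depended on replicate 2 and on the processing. Without replicate 2 IFITM2 was called higher against IgG (0.67, edgeR adjusted p = 0.00209) and against untreated cells (0.60, edgeR adjusted p = 0.00384), and IFITM3 against IgG (0.34, edgeR adjusted p = 0.0335). With replicate 2 kept, IFITM2 was called higher against IgG with no filter (0.46, edgeR adjusted p = 0.00168) and without mitochondrial genes (0.49, edgeR adjusted p = 0.0493). Against untreated cells it was called higher with no filter (0.39, edgeR adjusted p = 0.0116). DESeq2 called IFITM2 higher against IgG with all libraries (0.48, DESeq2 adjusted p = 0.0296).

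No change was detectable with non-specific IgG. Log2 fold changes of the 7 genes against untreated cells ran from -0.17 for IFITM3 to 0.01 for IFIT3, with standard errors between 0.12 and 0.23. None was called, with 0% of all genes called higher and 0% lower by edgeR, and 89 genes but none of the 7 had an unadjusted p under 0.05. DESeq2 also called 0 genes. For IFIT2 the 3 libraries with IgG lay below all untreated libraries (log2 -0.17, 95% interval -0.48 to 0.15). The interval of IFITM1, the widest, reached from -0.60 to 0.37, so that a change within it was not detectable here.

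**Figure D4:**
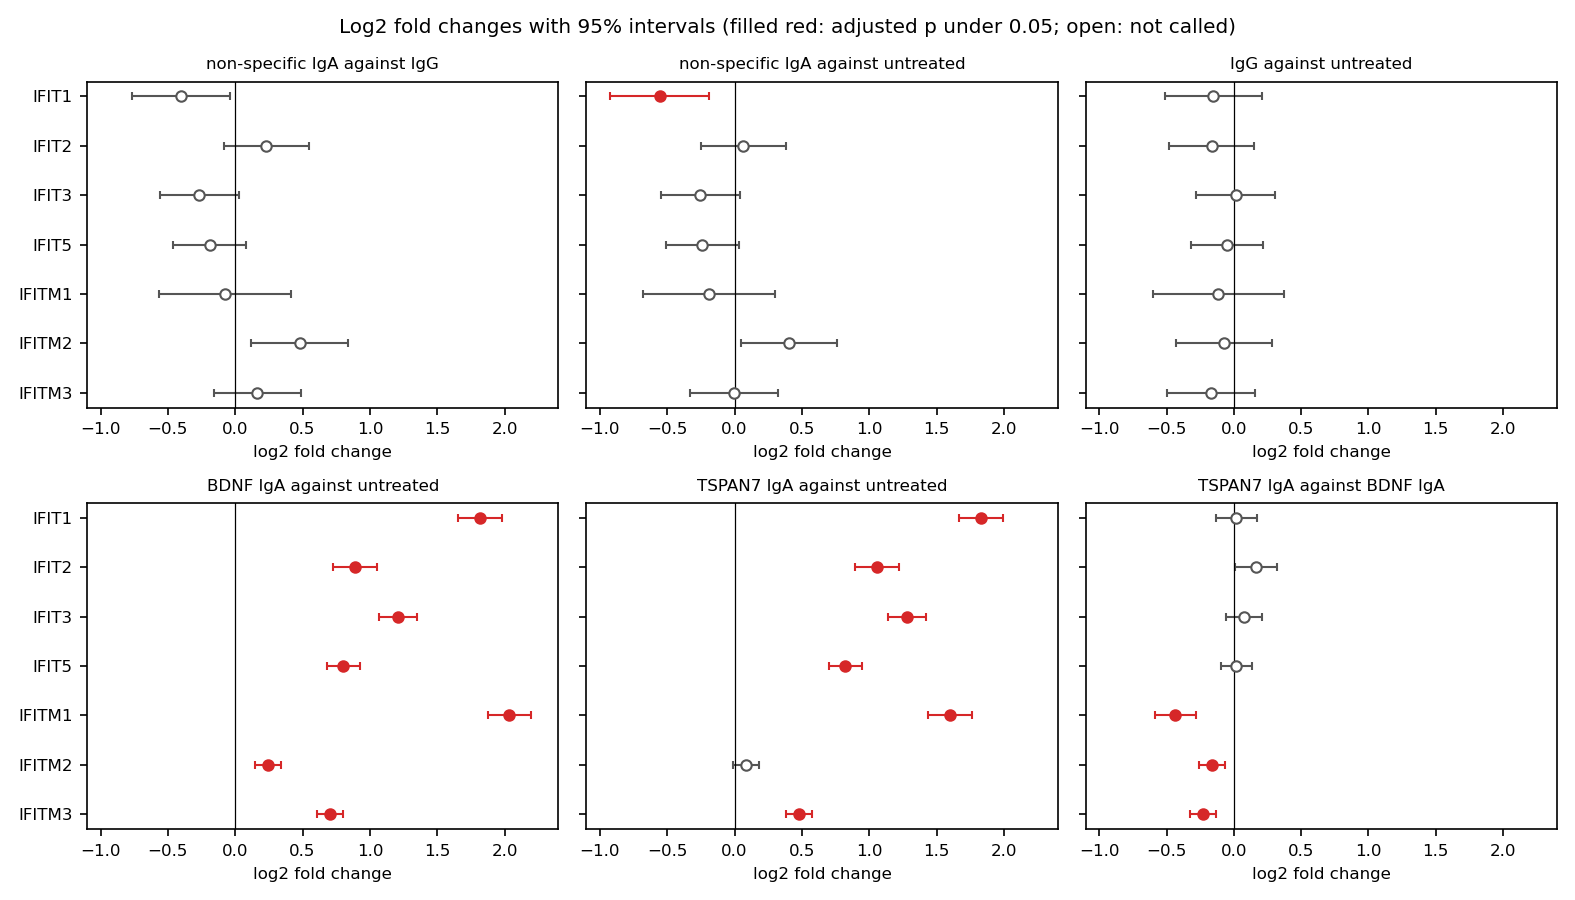
Log2 fold changes of the 7 genes with 95% intervals in the 6 comparisons, filled red where the edgeR adjusted p was under 0.05. All 7 genes are called with BDNF IgA and 6 with TSPAN7 IgA, the 3 IFITM genes when both are compared, and only IFIT1 in the first series.

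The balance among family members could be read within a library, where no scaling enters. These ratios were chosen after the values had been seen. In untreated cells of the second series there were 32.8, 31.0 and 33.5 counts of IFITM2 per 100 counts of IFITM3, and 23.2, 23.9 and 23.5 with BDNF IgA and 24.6, 24.5 and 24.9 with TSPAN7 IgA. In the first series the ratio was 28.3, 27.2 and 25.1 in untreated cells, 32.6, 28.3 and 25.5 with IgG, and 32.9, 34.6 and 39.2 with non-specific IgA. It was thus lower than in untreated cells with both antigen-specific antibodies and higher with non-specific IgA, without overlap in any of the 3 comparisons, and replicate 2, which was low in both genes, had a ratio within the range of the other IgA libraries.

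IFITM1 per 100 counts of IFITM3 went from 5.15 ± 0.11 (SD, n = 3) in untreated cells to 12.9 ± 1.08 with BDNF IgA and 11.2 ± 0.185 with TSPAN7 IgA, and was 1.86 ± 0.153, 1.92 ± 0.25 and 1.63 ± 0.173 in untreated, IgG and non-specific IgA cells of the first series. IFIT1 per 100 counts of IFIT3 went from 59.1 ± 2.74 to 90.2 ± 3.23 and 86.7 ± 6.28. IFIT5 fell behind IFIT3, from 46.7 ± 1.73 to 35.3 ± 2.75 and 33.9 ± 1.04, and IFIT2 from 42.2 ± 0.604 to 33.9 ± 1.03 and 36.2 ± 1.65. In each of these ratios both antibody groups were apart from the untreated libraries, with a two-sided exact permutation p of 0.1, the smallest that 3 against 3 libraries allow (0.188 after adjustment over the 30 tests of 5 ratios in 6 comparisons). No test of a ratio could reach 0.05.

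**Figure D5:**
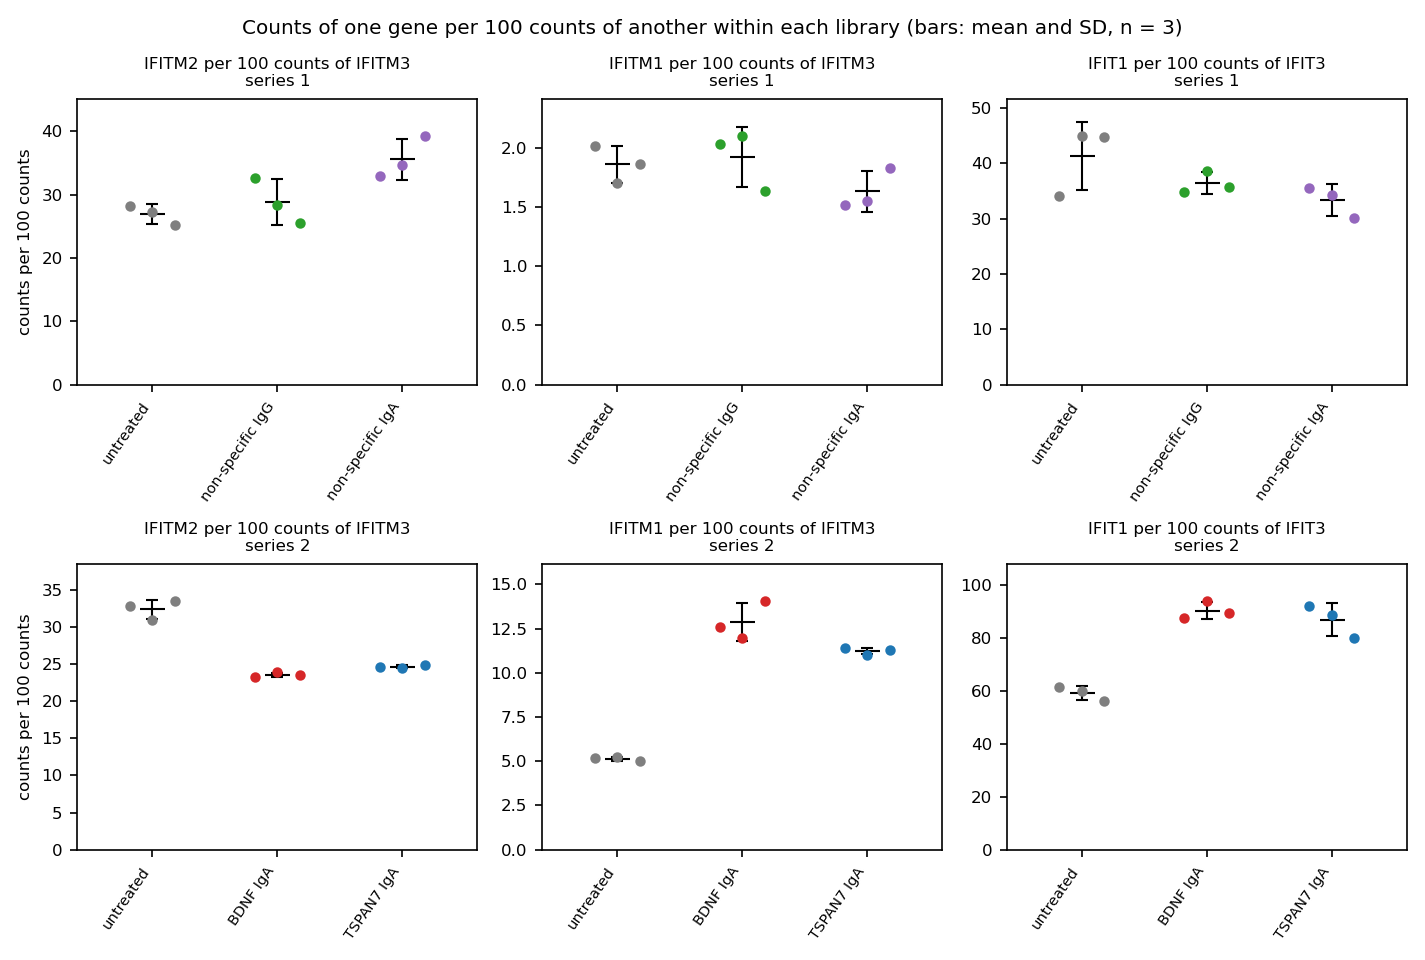
Counts of IFITM2 and of IFITM1 per 100 counts of IFITM3, and of IFIT1 per 100 counts of IFIT3, in each library (points, with the mean and SD of 3), for the first (top) and second series (bottom), with axes from 0. In the second series IFITM2 lies between 31.0 and 33.5 in untreated cells and between 23.2 and 24.9 with antibody, while IFITM1 and IFIT1 go up against their partners.

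Levels between genes were compared as CPM per kilobase of exon, with the summed length of all annotated exons. In all 6 groups IFITM3 came first, IFITM2 next and then IFITM1, followed by IFIT3. In untreated cells of the second series the levels were 174 ± 2.96 (SD, n = 3) for IFITM3, 100.1 ± 2.30 for IFITM2, 15.3 ± 0.55 for IFITM1 and 8.28 ± 0.76 for IFIT3, with no overlap between neighbours. IFIT1 (5.39 ± 0.689) and IFIT5 (4.47 ± 0.246) overlapped there, as did IFIT5 and IFIT2 (4.10 ± 0.362). With BDNF IgA the levels were 285 ± 19.6 for IFITM3, 119 ± 7.40 for IFITM2 and 62.7 ± 9.54 for IFITM1, followed by an overlapping pair of IFIT3 (19.1 ± 2.00) and IFIT1 (18.9 ± 1.8) and another of IFIT5 (7.79 ± 0.175) and IFIT2 (7.59 ± 0.896). With TSPAN7 IgA they were 242 ± 2.07, 106 ± 1.68 and 46.5 ± 1.12 for IFITM3, IFITM2 and IFITM1, and 20.1 ± 0.224 for IFIT3, 19.1 ± 1.18 for IFIT1, 8.52 ± 0.298 for IFIT2 and 7.90 ± 0.156 for IFIT5, where IFIT3 and IFIT1 overlapped and IFIT2 and IFIT5 did not.

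In the first series IFIT1 was the lowest of the 7 genes in every group, at 1.55 ± 0.154 in untreated cells and 1.05 ± 0.0625 with non-specific IgA. IFITM3 stood at 131 ± 0.374, IFITM2 at 62.3 ± 3.77, IFITM1 at 4.15 ± 0.334, IFIT3 at 3.45 ± 0.42, IFIT5 at 3.35 ± 0.0714 and IFIT2 at 1.97 ± 0.107 in untreated cells, where IFITM1, IFIT3 and IFIT5 overlapped with their neighbours. With IgG the order was the same, from 116 ± 13.6 for IFITM3 and 59.1 ± 7.42 for IFITM2 to 1.39 ± 0.127 for IFIT1, and with non-specific IgA IFITM3 stood at 131 ± 30.6 and IFITM2 at 82.4 ± 21.8. With the longest transcript as the length, IFIT5 and IFIT2 exchanged places with BDNF IgA and no other order changed. With the length of the main transcript they exchanged places in untreated cells of the second series as well. The size of the gaps depended on the length used. In those untreated cells IFITM3 stood at 174, 475 and 812 with all exons, the longest and the main transcript. IFITM2 stood at 100, 160 and 160.

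Part of these rows is uncertain because of shared sequence. Among exonic windows of 75 bases, the read length, 6.54% of those in IFITM1, 5.48% in IFITM2 and 7.34% in IFITM3 occurred elsewhere exactly, as did 0.669% in IFIT3 and none in IFIT1, IFIT2 and IFIT5, and only uniquely mapped reads were counted. A readthrough gene annotated across IFITM2 and IFITM1 covers 52.5% of the exonic bases of the main IFITM1 transcript and 3.08% of those of IFITM2. It matched no symbol of the counts, so whether it affected the counting of these rows is not known. LIPA, a lysosomal lipase gene, runs on the opposite strand through IFIT1, IFIT2 and IFIT3 but shares none of the exonic bases of their main transcripts, and use of strand in the counting was not stated.

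The rest of the pathway was read from gene lists, which were chosen with earlier results of these data known. Of 30 other interferon-induced genes, all 30 were called higher with each antigen-specific antibody, with a median log2 fold change of 1.12 for BDNF IgA and 1.09 for TSPAN7 IgA, from LGALS3BP (0.51 and 0.24) to IFI27 with BDNF IgA (2.92) and IFI44L with TSPAN7 IgA (2.61). Over all genes tested, 4.49% were called higher with BDNF IgA and 4.46% with TSPAN7 IgA. IFITM2, at 0.25 and 0.08, was below the lowest of these 30 with either antibody, and IFITM1 and IFIT1 were among the higher ones. With TSPAN7 IgA against BDNF IgA 5 of the 30 were lower and none higher, from TRIM22 (-0.49) to SAMD9 (0.10, not called). With non-specific IgA against IgG 2 of the 30 were higher and 2 lower, with HERC5 at 0.65 (edgeR adjusted p = 0.0255), PLSCR1 at 0.58, PARP9 at -0.79 and CMPK2 at -1.29 (edgeR adjusted p = 0.0408).

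Among 10 interferon ligands, IFNE alone had enough counts to be tested, and it was called in none of the 6 comparisons. It had between 76 and 134 counts per library in the second series and between 0 and 82 in the first. IFNA1, IFNA2, IFNW1 and IFNG had 0 counts in all 18 libraries, which allows up to 3 counts in each, for counting error only. IFNB1 had at most 4 counts in a library and IFNL1 at most 7.

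Of 9 receptor and kinase genes, IFNGR1, a receptor chain for interferon gamma, was higher with BDNF IgA (0.36, edgeR adjusted p = 5.42e-04) and TSPAN7 IgA (0.40, edgeR adjusted p = 1.03e-04), and IFNAR1, a receptor chain for type I interferons, was lower with TSPAN7 IgA (-0.26, edgeR adjusted p = 0.00115). The kinases JAK1, JAK2 and TYK2 were not called in the second series. With non-specific IgA against IgG, IFNGR1, IFNGR2 and JAK1 were higher and IFNAR1 lower.

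Among transcription factors of the pathway, STAT2 rose by 0.53 with BDNF IgA and 0.27 with TSPAN7 IgA, IRF7 by 1.10 and 1.00 and IRF9 by 1.12 and 0.95 on the log2 scale, and IRF1 by 0.17 with TSPAN7 IgA alone (edgeR adjusted p = 0.0413, against 0.0701 with BDNF IgA). STAT2, which acts with IRF9 at the response element printed above, was lower in this direct contrast of TSPAN7 IgA and BDNF IgA (-0.26, edgeR adjusted p = 0.0249). With non-specific IgA against IgG, IRF1 (1.19), IRF7 (1.10) and IRF2 (0.61) were higher, whereas STAT2 (-0.33) and IRF9 (-0.56) were not called.

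The 6 NF-kB feedback genes were all higher with non-specific IgA against IgG, with a median of 2.41 and TNFAIP3 highest at 4.17, while the 7 IFIT and IFITM genes were not called. Over all genes tested, 12.6% were called higher in that comparison. With BDNF IgA 5 of these 6 were higher (median 0.39) and with TSPAN7 IgA 4 (median 0.36). The 5 enzymes that form or methylate the cap, on which IFIT1 acts, were not called in the second series (medians 0.05 and 0.00), and RNGTT was higher with non-specific IgA against IgG (0.40). Of 6 genes whose products modify or bind IFITM proteins, none was called with BDNF IgA, the palmitoyltransferase gene ZDHHC20 was higher with TSPAN7 IgA (0.18), and CD81 with non-specific IgA against IgG (0.42). Of the 4 further family genes, IFITM10 alone was tested and it was not called in any comparison, and IFITM5 had 0 counts in all libraries.

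Leukocyte markers stayed low while the IFIT and IFITM genes rose. PTPRC, the common leukocyte antigen, had 6, 7 and 10 counts in untreated cells of the second series, 17, 19 and 18 with BDNF IgA and 23, 24 and 10 with TSPAN7 IgA, where it was called higher (log2 1.39). Their part in the result was not tested.

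Over the 9 libraries of the second series, the log2 levels of the 7 genes followed each other, and Pearson's r with IFIT1 was 0.999 for IFIT5, 0.995 for IFIT3, 0.986 for IFIT2, 0.972 for IFITM1, 0.935 for IFITM3 and 0.684 for IFITM2. IFIT1 was most like IFIT5 (r = 0.999), IFIT2 most like IFIT3 (0.991), IFIT5 most like OAS3 (0.999), IFITM1 most like SP100 (0.995), IFITM2 most like GBP5 (0.992) and IFITM3 most like TRIM22 (0.995). OAS1, SP100 and IFI44L were most like the mean of the 7 genes. The libraries share the group structure, in which the 3 untreated libraries are low for all these genes, so that r describes mostly that step.

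In the first series the members did not follow each other in this way. IFIT1 followed IFIT5 (r = 0.951) and IFIT3 (0.714) but not IFIT2 (-0.478) or IFITM2 (-0.591), and IFITM3 followed IFITM1 (0.799) and IFITM2 (0.711). The genes most like the members were FBXO21 for IFIT3, SBSPON for IFIT5, TFAP2E for IFITM1, PCAT6 for IFITM2, and the unnamed transcripts RP11-388M20.1, AC000089.3 and RP3-337O18.9 for IFIT1, IFIT2 and IFITM3, none of which was on the lists of the pathway. Those most like the mean of the 7 genes were RP11-21L23.3, MTCP1 and RNF223.

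The genes next to the members were read as well. Within 150 kb of an IFITM gene 10 other genes were tested, and with BDNF IgA 1 of them, ATHL1, was higher (0.54, edgeR adjusted p = 0.0488) with a median of -0.01 over the 10, while with TSPAN7 IgA none was called, from -0.13 to 0.17. PSMD13 was higher with non-specific IgA against IgG (0.40) and PTDSS2 with TSPAN7 IgA against BDNF IgA (0.26). LIPA was the single tested neighbour of the IFIT genes, at 0.30 with BDNF IgA (edgeR adjusted p = 0.0112) and 0.19 with TSPAN7 IgA (not called). It overlaps 3 of them on the other strand but shares 0 exonic bases of their main transcripts. Whether reads outside those exons were assigned between them was not tested.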

How the data were processed

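OVCAR3 RNA had been prepared with a kit for degraded RNA and sequenced as 75-base paired-end reads. The authors trimmed reads with cutadapt 1.8.1 and aligned them to GRCh37 with STAR 2.5.3a. The study's methods name featureCounts 1.5.3 on Gencode 30 for counting uniquely mapped reads, whereas the submitters' processing notes name HTSeq 0.6.1, and strand use is not given in the sources used here. The authors deposited raw counts per gene symbol, one table per series, without normalization, and tested them with DESeq2. The second table had 57820 rows, of which 2055 exact repeats (1.99% to 2.46% of counts) were removed, leaving 55765 symbols as in the first.

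Groups and replicate numbers came from sample titles. Genes passing edgeR's filter on low counts (18012 and 18732) were tested with edgeR 4.0.16's quasi-likelihood test on all 9 libraries of a series, with TMM scaling and Benjamini-Hochberg adjustment over all genes tested and a threshold of 0.05. Normalised counts are counts divided by the TMM-scaled library size and multiplied by its mean over the series. Errors are SE of the fit or SD over 3 libraries. Libraries without overlap are described for named genes only, and the share of all genes without overlap was not counted. Every pair of same-group libraries differed beyond counting noise. DESeq2 1.42.0, other scalings and filters, a replicate block, 6-library fits, summed IFITM rows and leaving out each library were alternatives. The code was tested on simulated data. Symbols were placed with Gencode v44lift37, lengths included, and promoter windows came from RefSeq. Correlations used log2 CPM with a prior count of 2.

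The members and gene lists were chosen with earlier results of these data known. Named beyond the 7 genes were the gene with the highest and the lowest fold change of each list, all called genes of lists of up to 10, genes within 150 kb of a member that were tested in both series, and the genes with the highest r. The ratios, and PLSCR1, PARP9, PTPRC and EPCAM, were added after their values were seen. PECAM1 did not match a symbol. The results of 1 gene on a pathway list are not reported here.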

Additional observations from a re-analysis of the deposited data

Results flagged for a closer look

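The IFITM genes responded differently to the antigen-specific antibodies: with TSPAN7 IgA against BDNF IgA, a direct test of the difference, the log2 fold change was -0.4332 for IFITM1, -0.1643 for IFITM2 and -0.2313 for IFITM3, lower in 3 of 3 libraries for each gene. How many of all genes separate in this way was not counted. The IFITM2 call held in only 1 of the 6 fits with a library left out, and was lost with 6 libraries alone. Lower values in this contrast were not particular to the IFITM genes, since some other interferon-induced genes, TRIM22 among them, were lower too.

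For IFIT1 and IFIT5 with non-specific IgA, and for IFIT2 with non-specific IgG, every library lay below the untreated libraries, while with both antigen-specific antibodies every library lay above its own untreated libraries. The other non-specific antibody did not show this, since IFIT1 and IFIT5 with IgG, and IFIT2 with non-specific IgA, overlapped the untreated libraries (log2 fold changes of -0.15, -0.05 and 0.07). IFIT1 had a log2 fold change of -0.5563 with non-specific IgA, and of 1.8143 with BDNF IgA and 1.8323 with TSPAN7 IgA. IFIT5 had -0.2392 with non-specific IgA, and 0.8017 and 0.821 with the antigen-specific antibodies. IFIT2 had -0.165 with non-specific IgG, and 0.892 and 1.0568 with the antigen-specific antibodies. These differences between series were not tested, since the series are separate experiments with their own untreated cells and library spread, and only the IFIT1 value passed the edgeR test among those of the first series. The share of all genes whose libraries separate from the untreated ones was not counted. With non-specific IgA against untreated cells, 6777 of the 18012 genes tested had an unadjusted edgeR p under 0.05.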

How the results depend on the processing

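All 7 calls with BDNF IgA, the 6 with TSPAN7 IgA, and the lower IFITM1 and IFITM3 with TSPAN7 IgA against BDNF IgA held under DESeq2, RLE scaling, library size alone, no filter, 1 CPM in 3 libraries, no mitochondrial genes, 6 libraries alone, the replicate block and each left-out library. The IFITM2 call in that last contrast was lost with 6 libraries alone (edgeR adjusted p = 0.062). Without BDNF IgA replicate 3 IFIT2 was called higher there, so that the left-out libraries gave 0 to 1 members higher and 2 to 3 lower.

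Results with non-specific IgA depended on the processing. With library size alone 2 members were lower against IgG (IFIT1 and IFIT3, not 0) and 2 against untreated cells (the same genes, not 1), IFIT2 turned to -0.0008 and IFITM3 to -0.0882 against IgG, and IFIT2 to -0.1402 against untreated cells. Against IgG 1 member, IFITM2, was higher with no filter, without mitochondrial genes and with DESeq2. Against untreated cells no filter gave 1 higher (IFITM2) and 0 lower, and 6 libraries alone gave 0 lower (IFIT1 adjusted p = 0.0758 and 0.0658). IFITM3 turned to 0.0026 without mitochondrial genes. The summed IFITM rows, at 0.2369 against IgG and 0.0885 against untreated cells, have the opposite sign to IFITM1 in both and to IFITM3 in the second. That sum is mostly IFITM3 and IFITM2, with means of 13081 and 4666 normalised counts with non-specific IgA, against 215 for IFITM1. IFITM2 had positive log2 fold changes in both comparisons (0.48 and 0.40). What made the other results depend on the processing was not tested.

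Leaving out each library in turn gave 0 to 2 members higher against IgG and, against untreated cells, 0 to 1 higher and 0 to 1 lower. Signs turned for IFITM1 (-0.2628 to 0.1325 against IgG, -0.3757 to 0.0183 against untreated), IFITM3 with IgA against untreated (-0.1234 to 0.1744), with IgG IFIT3 (-0.0804 to 0.0972), IFITM1 (-0.2894 to 0.0045) and IFITM2 (-0.158 to 0.0199), and IFIT1 with TSPAN7 IgA against BDNF IgA (-0.033 to 0.0988).

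Counts over all genes moved too. With library size alone 873 genes were higher and 3631 lower with non-specific IgA against IgG, for 2265 and 2095, and 1001 and 3296 against untreated cells, for 2316 and 2187. Without single libraries the ranges were 1339 to 2520 and 1227 to 2766 against IgG, 1365 to 2512 and 1236 to 2717 against untreated cells, 429 to 1505 and 293 to 1293 with BDNF IgA, 429 to 689 and 328 to 682 with TSPAN7 IgA, and 196 to 1554 and 286 to 1722 for TSPAN7 IgA against BDNF IgA, highest without BDNF IgA replicate 2. Without a filter 2 genes were lower with IgG. With 6 libraries alone 1326 were lower against IgG, 1168 lower with TSPAN7 IgA and 427 higher with TSPAN7 IgA against BDNF IgA.

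Correlations of deviations between same-numbered libraries lay between -0.0686 and 0.247 in the first series (1 of 9 over 0.1). In the second series they lay between -0.0168 and 0.0887. Differently numbered libraries had values between -0.21 and 0.143 in the first series (1 of 18 over 0.1). Those of the second series lay between -0.0769 and 0.0533. The highest correlation of each series joined same-numbered libraries, so that pairing by replicate number was not excluded. With the replicate block, 7 members stayed higher with BDNF IgA, 6 with TSPAN7 IgA and 3 lower between them, IFIT1 stayed lower with non-specific IgA (-0.56, edgeR adjusted p = 0.0301), and 949 genes were higher with BDNF IgA in place of 841.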
